A study of Homo sapiens with 6 samples.

Results

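The p53 target genes described here are 35 genes chosen by symbol as known transcriptional targets of p53, out of 61806 genes in the table, and all 35 were found. They were measured by RNA-seq in 6 libraries of HCT116, a human colorectal carcinoma line that retains wild-type p53. In 3 libraries, labelled wildtype, the cells had received a control short interfering RNA (si-NC). In the other 3, labelled as a STRIP2 knockdown, they had received one against STRIP2 (si-STRIP2), whose protein belongs to the STRIPAK complexes of a phosphatase with kinases. The labels name a single line and no time after transfection, dose or DNA-damaging agent, so these are levels without a stated p53-activating treatment. Whether a group holds separate cultures is not stated, and p-values then measure only the spread between these libraries, which may be technical.

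The transcription factor p53 binds DNA as a tetramer and switches on genes that stop the cell cycle, repair DNA, kill the cell or feed back on p53 itself. In unstressed cells it is kept scarce by the ubiquitin ligase MDM2, whose own gene p53 activates, so that the level of MDM2 RNA is often read beside that of CDKN1A, the gene of the p21 cyclin-dependent kinase inhibitor. Many of these targets also answer to other transcription factors and to RNA turnover. In epithelial cells of the colon the pathway is known for checkpoint arrest and for loss of damaged cells.

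The p53 binding element is a pair of decamers, each with purines, a C at position 4, A or T at the next positions, a G at position 7 and pyrimidines. Matches to this element in the promoters of members are shown to place the genes whose levels follow. RefSeq promoters (GRCh38.p14), which run from 250 bases before a start to 50 after it, were held for 27 of the 35 members. The promoters were searched on both strands, which the symmetry of the decamer makes a single search, for decamer pairs with a spacer of up to 13 bases, the C and G of each decamer intact. A pair with at most 2 mismatches over its 20 bases was found in 5 of the 27 members (18.5%) and in 3.62% of the 27305 genes of the promoter table. A pair with at most 3 mismatches was found in 9 of the 27 (33.3%) and in 15.3% of all genes. A gene can have several promoters, 42 for the 27 members and 35116 for all 27305 genes. Per promoter the shares were 14.3% and 2.93% for at most 2 mismatches, and 23.8% and 12.8% for at most 3. Since members were chosen as p53 targets, these shares describe the list. A match is not a shown binding site, and many p53 elements lie outside such a window. In the sequences below the capitals mark the bases from the C to the G of each decamer, and each is written 5′ to 3′ on the strand of its gene.

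DDB2, 0 mismatches, chr11:47214979-47214999, plus strand: gaaCAAGccctgggCATGttt

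AEN, 2 mismatches, chr15:88621306-88621325, plus strand: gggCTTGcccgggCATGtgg

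FAS, 2 mismatches, chr10:88991309-88991328, plus strand: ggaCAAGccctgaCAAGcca

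FDXR, 2 mismatches, chr17:74872996-74873025, minus strand: gggCGGGcccgggcaggagcgggCTTGccc

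MDM2, 2 mismatches, chr12:68808923-68808942, plus strand: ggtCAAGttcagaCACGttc

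SESN1, 3 mismatches, chr6:109009018-109009037, minus strand: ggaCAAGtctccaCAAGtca

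GDF15, 3 mismatches, chr19:18386186-18386205, plus strand: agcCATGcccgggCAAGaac

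The MDM2 match began 94 bases before a start inside the gene, and the 250 bases upstream of that start are given with the match in capitals (chr12:68808767-68809016, plus strand).

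MDM2 promoter: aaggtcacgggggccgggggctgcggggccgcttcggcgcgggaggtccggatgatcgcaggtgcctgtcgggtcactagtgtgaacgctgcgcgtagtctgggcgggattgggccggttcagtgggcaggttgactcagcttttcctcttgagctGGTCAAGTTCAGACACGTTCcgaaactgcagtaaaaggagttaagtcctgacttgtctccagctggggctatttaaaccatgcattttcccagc

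For CDKN1A the best pair in the window had 4 mismatches, and its 250 upstream bases (chr6:36678464-36678713, plus strand) are shown for contrast, with nothing in capitals.

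CDKN1A promoter: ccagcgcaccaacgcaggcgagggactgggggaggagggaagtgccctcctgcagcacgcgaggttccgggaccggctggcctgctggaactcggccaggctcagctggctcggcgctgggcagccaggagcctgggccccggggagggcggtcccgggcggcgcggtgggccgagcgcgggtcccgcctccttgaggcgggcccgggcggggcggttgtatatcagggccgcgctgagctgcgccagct

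Total counts lay between 17184963 and 21721218 per library, and mitochondrial genes took 4.88% to 8.88% of them. STRIP2 itself read 3.19, 3.77 and 3.81 FPKM (counts scaled by exon length and library total) in si-NC and 2.71, 2.53 and 2.58 in si-STRIP2, so 72.6% of its level remained (log2 fold change -0.46 ± 0.083, standard error or SE, edgeR adjusted p = 1.62e-05). Of 8 colorectal epithelial markers, 6 were at or above 1 FPKM in every library, with a summed level of 690.7 to 720.7 FPKM in si-NC and 667.4 to 691 in si-STRIP2, while VIL1 and CEACAM5 were under 0.1. Among the 6, 2 rose and 3 fell, CDH1 (E-cadherin) by the most, from 35.10, 37.95 and 36.75 to 23.99, 24.01 and 24.55 FPKM, and the part of such marker changes in the results was not tested. Of 9 markers of blood, vessel, stromal and liver cells, COL1A1 alone reached 1 FPKM in every library, and PTPRC, CD3E, PECAM1, VWF and COL3A1 stayed under 0.1.

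The p53 target genes did not move as a block. Of the 34 that could be tested, 10 rose and 13 fell in si-STRIP2 cells, and 11 were not called. The threshold is an edgeR quasi-likelihood adjusted p of 0.05 over the 15687 genes tested. Of those genes 54.8% were called, 27.8% as higher and 27.0% as lower, so the 67.6% of tested members that were called stand against a background in which many genes were called. The median log2 fold change was -0.038 over the members and 0.014 over all tested genes, and the median size regardless of sign was 0.325 and 0.257. Log2 fold changes ranged from -0.80 (GDF15) to 0.80 (APAF1). Groups were apart in FPKM for 23 of the 34 members and for 58.6% of tested genes. In these bulk samples, fewer cells expressing a gene and less RNA per cell cannot be told apart.

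A called change of at least 0.5 on the log2 scale was seen for 10 of the 34 members, against 18.9% of tested genes. These were CDKN1A, GDF15, TNFRSF10B and KITLG, which fell, and SESN1, BTG2, FDXR, APAF1, POLH and FBXO22, which rose. The 4 that fell were among the abundant members in si-NC (43.3 to 374 FPKM), and the 6 that rose were at 2.30 to 10.1 FPKM. Over the 33 members with a mean of at least 1 FPKM in si-NC, the coefficient of variation between libraries had a median of 4.14% in si-NC and 3.04% in si-STRIP2, with the highest values for FAS (14.2%) and TP53I3 (8.54%).

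**Figure D1:**
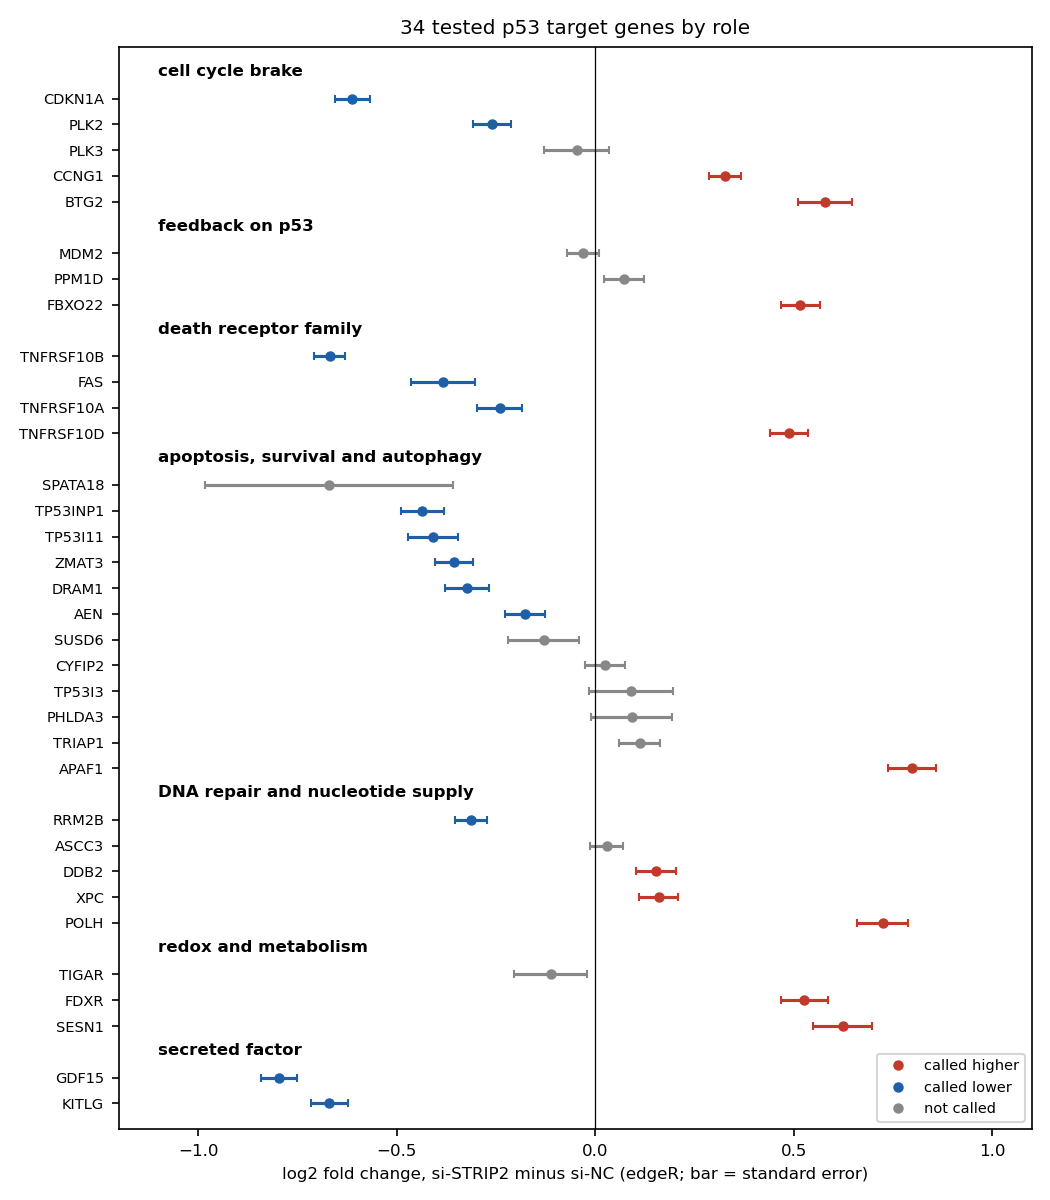
Log2 fold change of each tested member (horizontal axis, si-STRIP2 minus si-NC, edgeR) grouped by role, with bars of 1 standard error; red and blue points were called higher and lower, grey points were not called. Points run from -0.80 for GDF15 to 0.80 for APAF1, and 4 of the 7 roles hold both red and blue points; both secreted factors are blue, and the called feedback and redox genes are red.

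Among the brakes on the cell cycle, CDKN1A fell and BTG2 rose. CDKN1A (ENSG00000124762, chromosome 6, 36676460 to 36687337, plus strand) read 44.21, 42.73 and 42.85 FPKM in si-NC and 29.27, 29.57 and 26.34 in si-STRIP2. All 3 si-STRIP2 libraries lay well below the control libraries, whose values were close together. That is a log2 fold change of -0.61 ± 0.045 SE (edgeR adjusted p = 1.29e-13), which left 65.6% of the control level. BTG2, an antiproliferative protein that binds the CCR4-NOT deadenylase, read 7.16, 7.17 and 7.28 FPKM in si-NC and 10.43, 11.12 and 10.82 in si-STRIP2. It was higher in every si-STRIP2 library, 1.5-fold on average (log2 fold change 0.58 ± 0.069 SE, edgeR adjusted p = 9.03e-09).

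The other members of this role changed less. CCNG1, which encodes cyclin G1 and is one of the most abundant members, went from 64.2 ± 1.6 to 80.7 ± 1.74 FPKM (SD, n = 3; log2 fold change 0.33, edgeR adjusted p = 1.49e-08), with 65.52, 64.67 and 62.42 in si-NC and 82.04, 78.74 and 81.36 in si-STRIP2. PLK2, a polo-like kinase of centriole duplication and the stress response, fell from 13.96, 14.10 and 14.45 FPKM to 11.88, 12.20 and 11.48 (log2 fold change -0.26, edgeR adjusted p = 1.81e-05). The groups were apart for both genes, as they were for 58.6% of tested genes. PLK3, a relative of PLK2, was at 5.59, 5.05 and 5.19 FPKM in si-NC and 5.04, 5.09 and 5.29 in si-STRIP2, groups that overlapped, and was not called (log2 fold change -0.047 ± 0.081 SE).

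Of the 3 members grouped here as feedback on p53, MDM2 and PPM1D were near their control levels and FBXO22 rose. MDM2 (ENSG00000135679, chromosome 12, 68808177 to 68845544, plus strand) read 34.01, 37.22 and 34.08 FPKM in si-NC and 34.88, 34.36 and 34.06 in si-STRIP2. The 2 groups overlapped, and the difference was -0.030 ± 0.040 SE on the log2 scale (edgeR adjusted p = 0.545). PPM1D, the phosphatase that removes activating phosphates from p53 and its kinases, was not called either (0.074 ± 0.050 SE on the log2 scale). FBXO22, the substrate-binding subunit of a ubiquitin ligase reported to act on methylated p53, read 3.49, 3.79 and 3.62 FPKM in si-NC and 5.28, 5.25 and 5.08 in si-STRIP2. Its groups were apart, with a 1.43-fold higher mean (log2 fold change 0.52 ± 0.050 SE, edgeR adjusted p = 8.84e-11). FBXO22 shares 16.2% of its exonic bases with NRG4 on the other strand, which held 3.25% as many counts.

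Of the 4 tested members of the death receptor family, TNFRSF10B, TNFRSF10A and FAS fell and TNFRSF10D rose. These are too few genes to set against the 54.8% of all tested genes that were called, 27.0% as lower. TNFRSF10B, which encodes the TRAIL receptor DR5 and was the second most abundant member, read 70.95, 70.60 and 74.58 FPKM in si-NC and 46.51, 45.81 and 43.91 in si-STRIP2. Every si-STRIP2 value was far below every control value (log2 fold change -0.67 ± 0.040 SE, edgeR adjusted p = 7.88e-16). TNFRSF10D, a decoy TRAIL receptor with a truncated death domain, moved the other way, from 14.17, 14.22 and 14.26 FPKM in si-NC to 19.25, 20.58 and 20.14 in si-STRIP2. Its control values were nearly equal and the si-STRIP2 values all higher (log2 fold change 0.49 ± 0.048 SE, edgeR adjusted p = 1.46e-10).

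Both genes lie on the minus strand of chromosome 8, TNFRSF10B at 23020133 to 23069031 and TNFRSF10D at 23135588 to 23164027. Between them lies TNFRSF10C, a decoy receptor held by a lipid anchor and no member. It read 1.73, 2.13 and 1.69 FPKM in si-NC and 1.48, 1.52 and 1.58 in si-STRIP2. That is lower in every library but not called (log2 fold change -0.28 ± 0.191 SE). TNFRSF10C had 41 to 58 counts per library and shares 39.3% of its exonic bases with other genes that held 21.3% as many counts. TNFRSF10A, at 23190452 to 23225102, encodes the other signalling TRAIL receptor, DR4. It fell from 13.95, 13.74 and 13.60 FPKM in si-NC to 11.77, 11.80 and 11.49 in si-STRIP2 (log2 fold change -0.24, edgeR adjusted p = 0.000495), and it shares 16.6% of its exonic bases with antisense and divergent transcripts that held 49.6% as many counts.

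The ratio of TNFRSF10B to TNFRSF10D within a library does not depend on scaling between libraries. It was 5.01, 4.96 and 5.23 in si-NC and 2.42, 2.23 and 2.18 in si-STRIP2. The range of ratios in si-NC was thus far above that in si-STRIP2, and the ratio was picked after its values were seen.

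FAS, the receptor of FAS ligand, was low by FPKM, at 1.04, 1.16 and 0.87 in si-NC and 0.75, 0.77 and 0.85 in si-STRIP2. It was not low by counts, with 394 to 663 per library. FPKM divides by the deposited exonic size, which for FAS is 29313 bases, the largest of any member. The lowest control library sat just above the highest si-STRIP2 library. FAS was called (log2 fold change -0.38 ± 0.080 SE, edgeR adjusted p = 0.000133), and the call did not hold with limma on log2(FPKM + 1), where the change was -0.18 (limma adjusted p = 0.0523), nor on log2(FPKM + 0.1), where it was -0.33 (limma adjusted p = 0.0677). EDA2R, a receptor of ectodysplasin A2, had 2 to 5 counts per library and was the only member not tested. FAS shares 8.93% of its exonic bases with ACTA2, which held 15% as many counts.

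**Figure D2:**
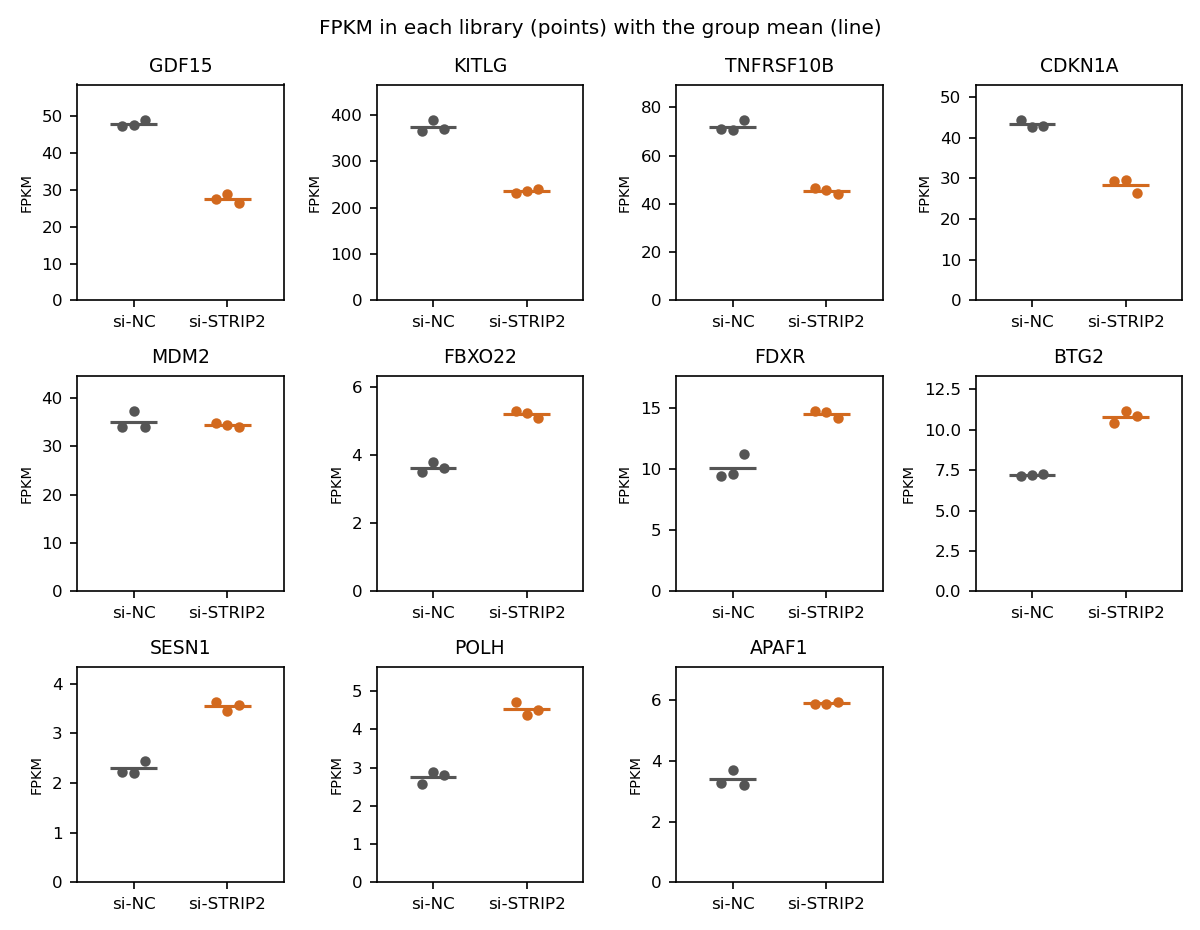
FPKM (vertical axes, each from 0) of MDM2 and of the 10 members called with a log2 change of at least 0.5, in the 3 si-NC (grey) and 3 si-STRIP2 (orange) libraries; points are libraries and lines are group means. The groups are apart in every panel except MDM2, where si-NC spans 34.01 to 37.22 and si-STRIP2 34.06 to 34.88. Since the 10 were picked for their calls, this separation follows from the choice. Groups were apart for 58.6% of all tested genes.

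In the apoptosis, survival and autophagy role, 5 of 12 members fell, 1 rose and 6 were not called, a called share of 50% that is near the 54.8% of all tested genes. The riser was APAF1, the scaffold on which cytochrome c assembles the apoptosome. APAF1 (ENSG00000120868, chromosome 12, 98645290 to 98735433, plus strand) read 3.25, 3.70 and 3.20 FPKM in si-NC and 5.87, 5.86 and 5.91 in si-STRIP2. The si-STRIP2 libraries were almost identical and all above the controls, with a 1.74-fold higher mean (log2 fold change 0.80 ± 0.061 SE, edgeR adjusted p = 3.52e-13). Only 3.29% of tested genes had a higher log2 fold change.

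The falls in this role were smaller. TP53INP1, a nuclear and autophagosomal stress protein, went from 9.96 ± 0.275 to 7.37 ± 0.494 FPKM (SD, n = 3; log2 fold change -0.44). TP53I11 had a log2 fold change of -0.41, ZMAT3, an RNA-binding zinc finger protein, one of -0.36, and DRAM1, a lysosomal membrane protein of autophagy, one of -0.32, from 14.28, 14.43 and 12.69 to 10.93, 11.43 and 10.86 FPKM. AEN, a nuclease of apoptosis whose promoter match begins 34 bases before the start, had the smallest, -0.18, from 8.78, 8.86 and 8.74 to 7.77, 7.59 and 8.04 FPKM (edgeR adjusted p = 0.00331), and the adjusted p of the other 4 was at most 5.66e-06. The FPKM ranges of the groups were apart for all 5, as they were for 58.6% of tested genes. TP53I11 shares 1.01% of its exonic bases with TSPAN18, which held 55.8% as many counts.

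APAF1 shares 9.48% of its exonic bases with ANKS1B, which held 0.179% as many counts. The 6 without a call were SPATA18, SUSD6, CYFIP2, TP53I3, PHLDA3 and TRIAP1. SPATA18, a protein of mitochondrial quality control, was at 0.29, 0.20 and 0.40 FPKM in si-NC and 0.14, 0.14 and 0.28 in si-STRIP2, and its log2 fold change of -0.67 came with an SE of 0.313 (edgeR adjusted p = 0.0689). That is as large an estimate as that of TNFRSF10B, but at a depth where the groups overlapped. With si-STRIP2 replicate 3 left out it passed (-1.08, edgeR adjusted p = 0.0124), as it did with si-NC replicate 2 left out (-0.88, edgeR adjusted p = 0.0234). TRIAP1, a small protein of mitochondrial lipid transfer, had 37.91, 39.26 and 35.05 FPKM in si-NC and 39.10, 42.00 and 40.66 in si-STRIP2 (log2 fold change 0.11, edgeR adjusted p = 0.0627), and it passed with si-NC replicate 2 left out (edgeR adjusted p = 0.0417) or si-STRIP2 replicate 1 left out (edgeR adjusted p = 0.0307). Log2 fold changes of the other 4 lay between -0.13 (SUSD6) and 0.092 (PHLDA3, an inhibitor of AKT). CYFIP2, a subunit of the WAVE regulatory complex, was at 8.08, 8.34 and 7.52 against 7.47, 8.58 and 8.39 FPKM, groups that overlapped.

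Of the 5 DNA repair members POLH rose most, XPC and DDB2 rose slightly, RRM2B fell and ASCC3 was not called, too few genes to set against the 27.8% of tested genes that rose. POLH, the polymerase that copies past ultraviolet lesions, read 2.56, 2.88 and 2.8 FPKM in si-NC and 4.7, 4.38 and 4.50 in si-STRIP2. All si-STRIP2 libraries were above all controls, 1.65-fold on average (log2 fold change 0.72 ± 0.065 SE, edgeR adjusted p = 1.62e-11). Its overlap with GTPBP2 covers 0.113% of its exonic bases, and GTPBP2 held 418% as many counts.

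XPC and DDB2, which recognise damage for nucleotide excision repair, both rose 1.12-fold, and neither was called when tested against a 1.2-fold change. DDB2, whose promoter match has 0 mismatches, read 10.18, 9.75 and 9.72 FPKM in si-NC and 11.17, 10.95 and 10.98 in si-STRIP2, groups that were close but apart (log2 fold change 0.15, edgeR adjusted p = 0.00962). XPC went from 10.73, 11.03 and 10.64 to 12.03, 12.56 and 11.71 FPKM (log2 fold change 0.16, edgeR adjusted p = 0.00643), and 30.4% of its exonic bases are shared with other genes, LSM3 among them, that held 135% as many counts. RRM2B, a subunit of ribonucleotide reductase that supplies nucleotides for repair, was the member of this role that fell, from 41.74, 43.61 and 41.54 FPKM to 32.92, 34.37 and 35.09 (log2 fold change -0.31, edgeR adjusted p = 5.78e-08). ASCC3, a helicase of alkylation repair, was at 10.58, 11.73 and 10.98 against 11.08, 11.43 and 11.49 FPKM and was not called (log2 fold change 0.029 ± 0.042 SE).

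Of the redox and metabolic members, SESN1 and FDXR rose. SESN1, a sestrin that restrains mTORC1 signalling, read 2.23, 2.21 and 2.45 FPKM in si-NC and 3.62, 3.44 and 3.57 in si-STRIP2. Its groups were far apart for so low a gene (log2 fold change 0.62 ± 0.075 SE, edgeR adjusted p = 1.04e-08). FDXR, the reductase that passes electrons to mitochondrial ferredoxin, read 9.43, 9.58 and 11.29 FPKM in si-NC and 14.74, 14.70 and 14.20 in si-STRIP2. One control library, replicate 3, stood above the other controls but below every si-STRIP2 library (log2 fold change 0.53 ± 0.059 SE, edgeR adjusted p = 2.69e-09). TIGAR, a fructose bisphosphatase that lowers glycolytic flux, was at 1.62 and 1.49 FPKM and was not called (log2 fold change -0.11 ± 0.092 SE).

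Both secreted members fell, too few genes to set against the 27.0% of tested genes that fell. GDF15 (ENSG00000130513, chromosome 19, 18374731 to 18389176, plus strand), a stress-induced hormone of the TGF-beta superfamily, read 47.47, 47.75 and 48.91 FPKM in si-NC and 27.66, 28.91 and 26.54 in si-STRIP2. Every library of si-STRIP2 was well under the controls, at 57.7% of their mean (log2 fold change -0.80 ± 0.045 SE, edgeR adjusted p = 2.06e-16). Of tested genes, 4.84% had a lower log2 fold change. KITLG, the ligand of the KIT receptor and the most abundant member by FPKM, read 365.72, 387.50 and 369.03 in si-NC and 231.92, 234.62 and 240.16 in si-STRIP2. Its groups were apart by over 100 FPKM (log2 fold change -0.67 ± 0.047 SE, edgeR adjusted p = 3.52e-14).

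Among the 27 of 35 members with a promoter held, those with a match did not share a direction. Among the 5 with at most 2 mismatches, DDB2 and FDXR rose, AEN and FAS fell, and MDM2 was not called. Of the 4 with 3 mismatches, SESN1 rose, while GDF15, PLK2 and ZMAT3 fell. As 27.8% of all tested genes rose and 27.0% fell, such a mix is not particular to genes with a match. CDKN1A fell while MDM2 was not called, and the ratio of CDKN1A to MDM2, picked after its values were seen, was 1.30, 1.15 and 1.26 in si-NC and 0.839, 0.861 and 0.773 in si-STRIP2.

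The deposited annotation places 14 of the 35 members under the KEGG term p53 signaling pathway. Of these 14, 5 rose and 6 fell, and of the 20 tested members without the term 5 rose and 7 fell. Among the 85 tested genes of the term that are no members, 28 rose and 23 fell. The called shares were 78.6%, 60% and 60% beside 54.8% of all tested genes, and nothing particular to the term is read from them.

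A list of 40 further genes reported as p53 targets leaned lower. Of the 39 tested, 21 fell and 7 rose, with a median log2 fold change of -0.21 beside 0.014 over all tested genes. The share called was 71.8%, against 54.8% of all tested genes, 27.0% lower and 27.8% higher. This list shares genes with other pathways, and it was drawn up with earlier results of these data known. The largest falls were those of TGFA, an EGF receptor ligand (-1.43, 31.4 ± 0.881 to 11.7 ± 0.666 FPKM), GADD45A, a stress and DNA damage protein (-1.13, 118.6 ± 3.72 to 54.3 ± 1.43 FPKM), and PRDM1, a transcriptional repressor (-1.02, 1.81 ± 0.0058 to 0.893 ± 0.142 FPKM; SD, n = 3 for each). PIDD1, LIF and PML had the largest rises, of 0.60, 0.52 and 0.46, where 1.82% of the exonic bases of PIDD1 are shared with RPLP2, a gene with far more counts. For all 6 genes edgeR gave an adjusted p of 7.16e-05 or less.

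Relatives of 2 members in this list changed in the opposite direction to the member, and the levels within each pair came closer. BTG1, a relative of BTG2, fell from 31.7 ± 2.43 to 17.6 ± 0.666 FPKM (SD, n = 3; log2 fold change -0.85, edgeR adjusted p = 1.51e-16), and the ratio of BTG2 to BTG1 went from 0.221, 0.213 and 0.251 to 0.618, 0.611 and 0.612. SESN2, a sestrin like SESN1, fell from 20.4 ± 0.951 to 14.1 ± 0.352 FPKM (SD, n = 3; log2 fold change -0.53, edgeR adjusted p = 4.75e-11). The ratio of SESN1 to SESN2 went from 0.105, 0.114 and 0.118 to 0.254, 0.239 and 0.260. These pairs were chosen after their values were seen, and their ratios are a description.

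**Figure D3:**
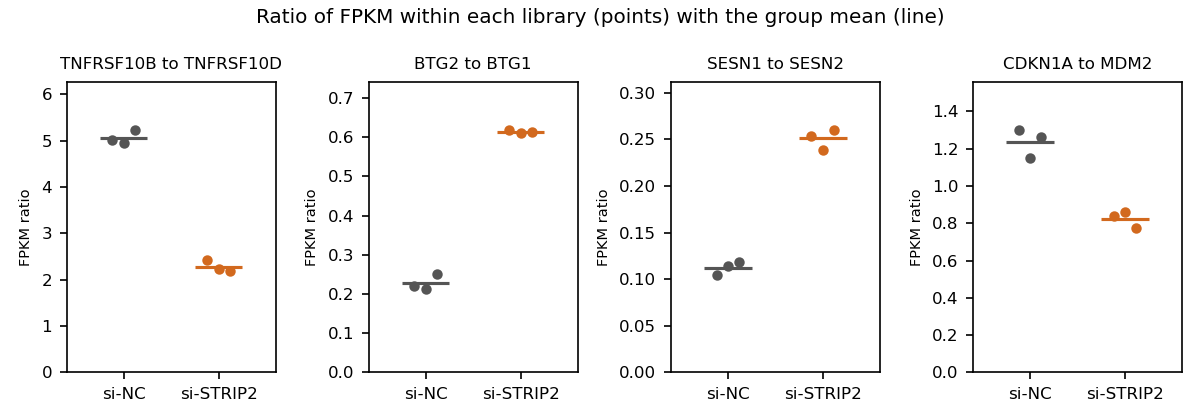
Ratio of the FPKM of 2 genes within each library (vertical axes, each from 0) for 4 pairs, in si-NC (grey) and si-STRIP2 (orange); points are libraries and lines are group means. The ratio of TNFRSF10B to TNFRSF10D drops from about 5.07 to 2.27 on average, and that of BTG2 to BTG1 goes from 0.228 to 0.614. No pair overlaps between groups, but all 4 pairs were picked after their values were seen, so this is a description.

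Regulators of p53 were called in both directions. Of 20, 9 rose and 6 fell, with a median log2 fold change of 0.047. The called share was 75%, and all tested genes gave 54.8%, with 27.8% higher and 27.0% lower. These genes too were listed with earlier results of these data known. CHEK2, a kinase that phosphorylates p53 after DNA breaks, had the largest rise (0.64, 6.51 ± 0.165 to 10.2 ± 0.289 FPKM), followed by KAT5 (0.49), an acetyltransferase, and ATM (0.48), the apical kinase of the break response. HIPK2 (-0.52), a kinase, CREBBP (-0.50), an acetyltransferase, and TP53RK (-0.35) had the largest falls, all with an edgeR adjusted p of at most 4.30e-05. KAT5 shares 38.6% of its exonic bases with RNASEH2C, which held 34.8% as many counts. CHEK2 shares 6.7% with HSCB, which held 31.7%, and 1.5% of those of ATM are shared with genes at 80.9%.

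In a list of cell cycle genes, most of them genes that p53 is known to lower through CDKN1A and the DREAM repressor complex and some of them (LIN9, LIN54 and RBL1) subunits of that complex or its relatives, the greater number rose. Of 20, 15 rose and 2 fell, and the median was 0.24. The called share was 85%, beside 54.8% of all tested genes (27.8% higher and 27.0% lower). This list too was drawn up with earlier results of these data known. CCNA2, the gene of cyclin A2, rose by 0.62, CENPF, a kinetochore protein, by 0.48, and TOP2A, a topoisomerase of mitosis, by 0.44 on the log2 scale (edgeR adjusted p at most 4.80e-11). KIF23 (-0.21) and LIN9 (-0.16) fell (edgeR adjusted p = 4.50e-05 and 0.0218). CCNA2 shares 9.08% of its exonic bases with EXOSC9, which held 82.3% as many counts. Whether the level of CDKN1A bears on these genes was not tested.

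**Figure D4:**
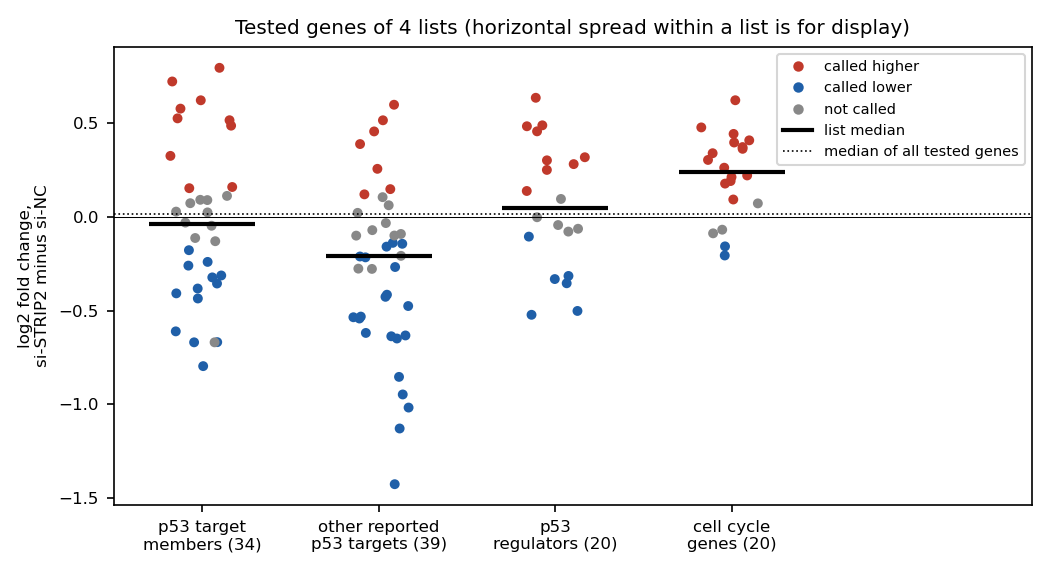
Log2 fold change (vertical axis, si-STRIP2 minus si-NC, edgeR) of the tested genes of 4 lists; each point is a gene, black bars are list medians and the dotted line is the median of all tested genes, 0.014. The members centre near that line at -0.038, the other p53 targets lie lower at -0.21, the regulators at 0.047 and the cell cycle genes higher at 0.24. All 4 lists were drawn up with earlier results of these data known.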

How the data were processed

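The authors deposited 1 table with raw counts and FPKM values per gene for 6 libraries, per the file headers. Per the submitters' processing notes, bcl2fastq 2.20.0.422, FastQC 0.10.1, cutadapt 1.9.1, HISAT2 2.2.1 and HTSeq 0.6.1 were used, with build GRCh38.p13. Libraries were made from poly(A) RNA with a directional kit, per the labels' protocols. The use of strand in counting and the annotation release are not given in the sources used here, so reads of overlapping genes may be lost or shared. Exon overlaps were taken from GENCODE 29 on GRCh38. The deposited FPKM equal counts scaled by exonic size and column total within 0.005. The deposited exonic sizes, in bases, served that recomputation, and the size for FAS is quoted.

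Counts were tested with edgeR 4.0.16 in R 4.3.3 (filterByExpr, minimum count 10, TMM, quasi-likelihood F test, 2-sided, Benjamini-Hochberg over 15687 genes holding 99.8% of counts). Standard errors (SE) were derived from each log2 fold change and its F statistic. DESeq2 1.42.0 and limma 3.58.1 on log2(FPKM + 1) or log2(FPKM + 0.1) were alternatives. The fit was tested on simulated data. Totals of 17184963 to 21721218 counts limit the precision of genes with few counts.

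Members and lists were chosen with earlier results of these data known. Named in full are MDM2, CDKN1A and members called with a log2 change of at least 0.5 (values in all 6 libraries), members whose call or direction an alternative changed, and, of other lists, the 3 largest called changes in each direction. CDH1, BTG1, SESN2 and TNFRSF10C were named after their values were seen. The gene of p53 itself is no member and was not analysed here.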

Additional observations from a re-analysis of the deposited data

How the results depend on the processing

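Results were recomputed under 16 alternatives. Of the 23 called members, 14 kept their call wherever they were tested and 0 changed direction. RRM2B, TNFRSF10A, PLK2, AEN, CCNG1, XPC, DDB2, DRAM1 and FAS lost theirs when tested against a 1.2-fold change. FAS also lost it in both limma fits. A test against a 1.2-fold change left 14 members called, 7 higher and 7 lower, and called 3 higher and 13 lower among the other p53 targets, 4 and 2 among regulators, and 8 and 0 among cell cycle genes; it calls fewer genes by construction (23.7% of all tested). In the other alternatives 25.5% (no filter on low counts) to 71.9% (filter of 5 FPKM) of all tested genes were called, with 46.1% for DESeq2, and 20 to 25 members. DESeq2 called 1 cell cycle gene lower. Leaving out 1 library at a time gave 1 to 3 such genes, and a median log2 fold change of the members from -0.058 to -0.007, where the value nearest 0 was that without si-NC replicate 2. Signs of 4 members that were not called turned when a library was left out, with leave-one-out ranges of -0.052 to 0.004 for MDM2, -0.086 to 0.005 for PLK3, -0.017 to 0.093 for CYFIP2 and -0.002 to 0.060 for ASCC3. With the replicate number as a block, 24 members were called, 10 higher and 14 lower, the addition being SPATA18 (-0.68, edgeR adjusted p = 0.0491). Same-numbered libraries did not deviate together (correlations -0.103, -0.012 and -0.101), so the numbers were not treated as pairs. The filter of 5 FPKM left 26 members to test.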
